A study of Mus musculus with 8 samples.

Results

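Protein-coding genes that occupy 300 kb or more of the genome were compared between *K-Ctrl* and *K-Setd2KO* mouse lung tumors. A gene entered when it was annotated as protein-coding, when its largest exon end lay at least 300000 bases from its smallest exon start in the count table, and when it had 10 or more counts in at least 4 of the 8 tumors. Of the 48709 genes in the table, 337 met the rule, and they are called long genes here. Before the count limit 551 protein-coding genes were that long, and 46 of these had 0 counts in every tumor. The rule used gene structure and counts over all 8 tumors. It was met through the 4 *K-Ctrl* tumors alone, with no *K-Setd2KO* tumor at 10 counts, by 9 long genes (2.67%), among them *Tmem132d*, *Gria1*, *Dnah9*, *Unc5c* and *Pde1c*, and through *K-Setd2KO* alone by 0. Those 9 entered with low counts in *K-Setd2KO* by the way they were chosen, so their differences are descriptions. Those named are given without a p. The shares called lower of all long genes, and of the role lists in which such genes were tested, are repeated without them. Other shares include them, such as those by class of span and those outside the endothelial, stromal and leukocyte list. The 13091 protein-coding genes of shorter span that met the same count limit served as the comparison.

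Setd2 is the enzyme that trimethylates lysine 36 of histone H3. It travels with elongating RNA polymerase II, so its mark accumulates along the bodies of transcribed genes and is densest toward their 3′ ends. The mark is read by factors that act on splicing, on DNA methylation of gene bodies and on the silencing of starts inside genes. Most of a long gene is intron, and polymerase needs far longer to cross it than to cross an average gene. In mammals long genes are common among those for cell adhesion, axon guidance, ion channels, the cytoskeleton and transcription factors of development, many of them first studied in neurons.

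The long genes had a median span of 424.1 kb, with quartiles of 346.3 and 563.5 kb, while the shorter genes had a median span of 23.5 kb. Exons made up a median of 2.05% of a long gene and 17.7% of a shorter one. The longest stretch without an annotated exon had a median of 129.9 kb in long genes and 6.74 kb in shorter genes. Long genes also had longer mature transcripts, with a median summed exon length of 9809 bases against 4049 bases. Their level was lower than that of shorter genes when compared per length. The median was 1.85 CPM (counts after scaling every library to one size) per kb of exon, against 6.09 CPM per kb for shorter genes. Another gene lay wholly inside 275 of the 337 long genes, and the exons of 103 overlapped exons of another gene, 94 of them on the opposite strand. Whether the counting separated the strands is not given in the sources used here, so the values of those overlapping genes are uncertain.

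The limit of 300 kb was checked against RefSeq, in which all 337 genes were found. There 325 also spanned 300 kb or more. The other 12 were shorter there, 4 of them under 100 kb. The largest span of all, 2960.9 kb for *Fgfr2*, the receptor for several fibroblast growth factors of the lung, held a single exon-free stretch of 2815.5 kb and was 104.4 kb in RefSeq. *Chd1*, which encodes a chromatin remodeler, spanned 1689.9 kb in the table and 67.6 kb in RefSeq. Among the 318 tested genes that were long in both annotations 23.3% were called lower, against 23.0% of all long genes tested.

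Promoter sequences are shown for the long genes with the smallest p in each direction among those in the RefSeq promoter table used here. They cover 3 that were lower in *K-Setd2KO* tumors and 2 that were higher, because a long gene is read from this end. Of these, *Dnah9* met the count limit through *K-Ctrl* alone. Likeness between the windows was not measured. Each window holds 250 bases before and 50 bases after the RefSeq start on GRCm38.p6, written 5′ to 3′ on the strand of the gene, and capitals mark CG dinucleotides.
*Diaph2*, chrX:129749492-129749791, plus strand: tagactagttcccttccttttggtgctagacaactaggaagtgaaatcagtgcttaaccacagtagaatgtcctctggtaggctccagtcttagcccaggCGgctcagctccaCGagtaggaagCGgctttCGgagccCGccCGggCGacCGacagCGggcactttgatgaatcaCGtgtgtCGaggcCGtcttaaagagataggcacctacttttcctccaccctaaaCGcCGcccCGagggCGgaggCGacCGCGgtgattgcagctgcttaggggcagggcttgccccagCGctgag
*Dock2*, chr11:34783856-34784155, minus strand: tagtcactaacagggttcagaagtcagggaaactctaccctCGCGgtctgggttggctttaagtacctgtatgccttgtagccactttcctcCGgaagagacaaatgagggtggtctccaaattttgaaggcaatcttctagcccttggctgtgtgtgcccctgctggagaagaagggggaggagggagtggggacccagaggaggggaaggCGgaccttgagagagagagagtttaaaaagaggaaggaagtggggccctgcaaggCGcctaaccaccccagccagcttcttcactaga
*Dnah9*, chr11:66168502-66168801, minus strand: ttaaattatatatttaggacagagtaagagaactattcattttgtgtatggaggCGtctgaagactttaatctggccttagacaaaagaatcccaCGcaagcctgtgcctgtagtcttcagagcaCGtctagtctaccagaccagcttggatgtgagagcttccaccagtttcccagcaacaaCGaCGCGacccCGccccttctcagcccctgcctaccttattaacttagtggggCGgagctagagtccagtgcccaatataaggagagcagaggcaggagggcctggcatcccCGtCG
*Rims1*, chr1:22806109-22806408, minus strand: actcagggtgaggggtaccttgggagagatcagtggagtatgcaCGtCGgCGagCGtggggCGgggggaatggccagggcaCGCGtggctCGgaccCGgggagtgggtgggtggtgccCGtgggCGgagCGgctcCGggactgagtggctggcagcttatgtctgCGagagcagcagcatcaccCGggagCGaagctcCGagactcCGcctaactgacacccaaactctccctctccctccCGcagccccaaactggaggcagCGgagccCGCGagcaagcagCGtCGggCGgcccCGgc
*Prdm16*, chr4:154636824-154637123, minus strand: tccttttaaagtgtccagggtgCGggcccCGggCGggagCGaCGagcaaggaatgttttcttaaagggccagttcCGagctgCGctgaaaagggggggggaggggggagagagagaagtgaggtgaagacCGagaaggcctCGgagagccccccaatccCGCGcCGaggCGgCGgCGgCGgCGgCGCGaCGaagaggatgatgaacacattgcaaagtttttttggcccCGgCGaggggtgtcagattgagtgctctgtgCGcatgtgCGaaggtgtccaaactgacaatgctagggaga
These windows held 20, 5, 10, 26 and 24 CG dinucleotides, in the order printed. The RefSeq start lay 434 bases from the 5′ end of the gene in the table for *Rims1*, 13 bases from it for *Dock2* and exactly at it for the others. Over the 253 long genes with an entry the median was 21 CG per window, and over 10302 shorter genes it was 20. The letters TATAAA, read on either strand, were present in 6.72% of the long gene windows and in 7.25% of the windows of all protein-coding genes that met the count limit. None of the 5 windows printed held TATAAA.

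The study asked how loss of *Setd2* favors the growth of lung tumors and which weaknesses it leaves in them. *K* mice carry an oncogene allele that Cre switches on, on a mixed B6J/129S4vJae background. Per the study, both groups received a lentiviral CRISPR vector that also carries Cre (LentiCRISPRv2Cre) by endotracheal intubation, with a guide RNA against *GFP* in the 4 *K-Ctrl* tumors and against *Setd2* in the 4 *K-Setd2KO* tumors. The study selected tumors of matched stage by histology and calls the *K-Setd2KO* tumors low-grade adenomas, while the labels say lung adenocarcinoma. The age of the mice when these tumors were collected, and whether the 4 tumors of a group came from separate mice, are not given in the sources used here, so p-values measure the spread between these samples. Cre acts here in cells that the virus entered, and an edited tumor still holds unedited stromal, endothelial and blood cells. One label text describes flash-frozen tumors and another describes cell lines, and this difference was not resolved. Markers of alveolar type 2 cells summed to between 55816 and 90559 CPM in every tumor, and markers of leukocytes, endothelium and fibroblasts were present in all 8. Total counts ran from 5806599 to 21290402 per tumor. By Xist and Y-linked genes, 1 *K-Ctrl* tumor and 3 *K-Setd2KO* tumors were female.

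Values of single tumors are listed in the order of replicates 1 to 4. *Setd2* itself, on chromosome 9 from base 110532597 to 110618633, was counted at 152, 138, 132 and 137 CPM in the *K-Ctrl* tumors and at 145, 121, 124 and 152 CPM in the *K-Setd2KO* tumors. The groups overlapped, and the log2 fold change was -0.05 (SE 0.12, edgeR adjusted p = 0.824, two-sided exact permutation p = 0.571). A CRISPR cut can end a protein without lowering its transcript, so gene counts do not check the label here.

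Long genes were lower in *K-Setd2KO* tumors more often than genes at large. Of the 330 long genes tested, 76 (23.0%) fell and 15 (4.55%) rose at an edgeR adjusted p of 0.05, where 7.74% of all 14929 genes tested were called lower and 4.97% higher, 12.7% in all. Among 13024 shorter protein-coding genes tested the shares were 8.02% and 5.11%. The genes that fell included *Diaph2*, an actin-nucleating formin, *Dock2*, a Rac activator of leukocytes, and *Robo2*, a receptor for SLIT guidance proteins. Those that rose included *Plxna4*, a co-receptor for semaphorins, *Shank2*, a scaffold protein, and *Wwox*, an oxidoreductase gene that lies in a common fragile site. The median log2 fold change of long genes was -0.24 (quartiles -1.23 and 0.14), against 0.03 over all genes tested and 0.02 over shorter protein-coding genes. A log2 fold change below 0 was found for 64.8% of long genes and for 47.3% of all genes tested. Every *K-Setd2KO* tumor was below every *K-Ctrl* tumor for 87 long genes (26.4%), where 11.2% of all genes did this. The reverse held for 19 (5.76%), where the share over all genes was 9.06%. Lower calls of over 2-fold were made for 66 long genes and for 6.39% of all genes tested, and higher calls of that size for 6 long genes and for 2.01% of all genes. All 7 tested of the long genes that met the count limit through *K-Ctrl* alone were among the lower calls. Without them 21.4% of 323 long genes were called lower, with 12.7% of weighted shorter genes chosen in the same way. The median log2 fold change of those 323 was -0.23. The counts of values below 0, of groups apart and of calls over 2-fold include the 7 genes and were not repeated.

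The shares of long and of shorter genes called lower both depended on single tumors. That of long genes was 14.5% without *K-Ctrl* replicate 1, 12% without *K-Ctrl* replicate 3 and 13.2% without *K-Setd2KO* replicate 3. It was between 17.6% and 22.3% without any other. In the first 3 of these fits 938, 763 and 1011 genes were called in all, against 1897 with every tumor. Shorter genes weighted to like abundance and transcript length were lower there in 7.06%, 6.53% and 7.45%, against 13.0% with every tumor. With a term for sex it was 11.2%, beside 9.03% of shorter genes weighted to like abundance and transcript length. The median moved less, from -0.36 to -0.22 over these fits without a tumor and to -0.27 with sex as a term. Of the 76 lower calls, 34 were made in all 8 fits that left out a tumor and 36 with a term for sex, and of the 15 higher calls 5 and 7 were.

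Shorter genes of like abundance and transcript length showed part of this difference. The shorter genes were sorted into 25 classes by mean CPM and summed exon length and weighted so that each class held the same share as among long genes. Their weighted median exon length was then 9395 bases, close to that of the long genes. Of these weighted shorter genes 13.0% were called lower and their median log2 fold change was -0.10. With a term for sex the shares of long and weighted shorter genes lay closer, at 11.2% and 9.03%. For 330 genes the share without that term corresponds to 43.0 lower calls, against the 76 counted among long genes. The medians of long and weighted shorter genes differed by -0.14. Over the fits without a tumor this difference ran from -0.11 to -0.26, the latter without *K-Setd2KO* replicate 2. With a limit of 500 kb in place of 300 kb, 18.4% of 114 genes were called lower beside 14.6% of their weighted shorter genes, and the difference of medians turned to 0.02. These values describe the fit and carry no test.

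The level of long genes was also followed in each tumor as the mean over genes of log2 CPM, centred for each gene. This long gene level was 0.50, 0.21, 0.23 and 0.17 in *K-Ctrl* and -0.24, -0.21, -0.40 and -0.26 in *K-Setd2KO*. All 4 *K-Ctrl* tumors were above all 4 *K-Setd2KO* tumors, and the means differed by -0.56. Without the genes that met the count limit through 1 group the groups were apart as well, with a difference of -0.48. The weighted shorter genes were apart too, with a difference of -0.33. Long minus shorter gave 0.26, 0.02, 0.07 and 0.10 in *K-Ctrl* and -0.12, 0.06, -0.25 and -0.14 in *K-Setd2KO*, a difference of -0.22, or -0.17 without the genes that met the count limit through 1 group. On this scale the groups overlapped, because *K-Setd2KO* replicate 2 was higher than *K-Ctrl* replicate 2. The difference of long minus shorter was -0.39 between the male tumors, of which *K-Setd2KO* has 1, and -0.08 between the female tumors, of which *K-Ctrl* has 1.

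**Figure D1:**
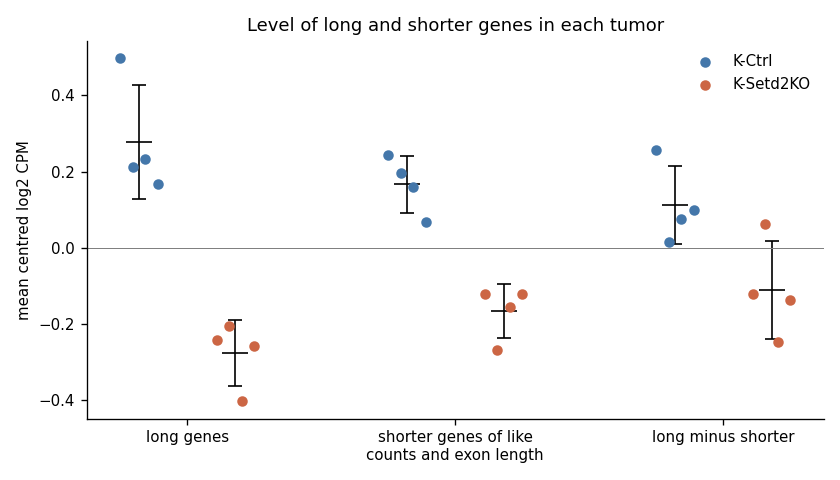
Mean centred log2 CPM in each tumor (vertical axis) for the long genes, for the weighted shorter genes of like counts and exon length, and for the former minus the latter. Points are tumors and bars give the mean and SD of 4 tumors. The groups are apart for long genes (difference -0.56) and for shorter genes (-0.33) and overlap for long minus shorter (-0.22). The drawn values include the 9 long genes that met the count limit through *K-Ctrl* alone, without which the differences for long genes and for long minus shorter are -0.48 and -0.17.

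Lower calls became more frequent with gene span up to 500 kb and were fewer above it. The share called lower was 4.59% of 3135 genes under 10 kb, 8.90% of 3912 genes of 30 to 100 kb, 15.9% of 1170 genes of 100 to 200 kb and 19.9% of 337 genes of 200 to 300 kb. It was 25.5% of 216 genes of 300 to 500 kb, 17.8% of 90 genes of 500 to 1000 kb and 20.8% of 24 genes of 1000 kb and over. Genes of 200 to 300 kb, just short of the limit, were thus close to the long genes. The classes of 300 kb and over include the 7 tested genes that entered through *K-Ctrl* alone, all called lower. The shares of these classes were not repeated without them. The median log2 fold change fell from 0.12 under 10 kb to -0.34 at 300 to 500 kb and was -0.13 in both classes above that. Within the 330 long genes, span and log2 fold change had a Spearman correlation of 0.07, and within 12964 shorter genes it was -0.17. These correlations are across genes that share the same 8 libraries and are given as descriptions.

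**Figure D2:**
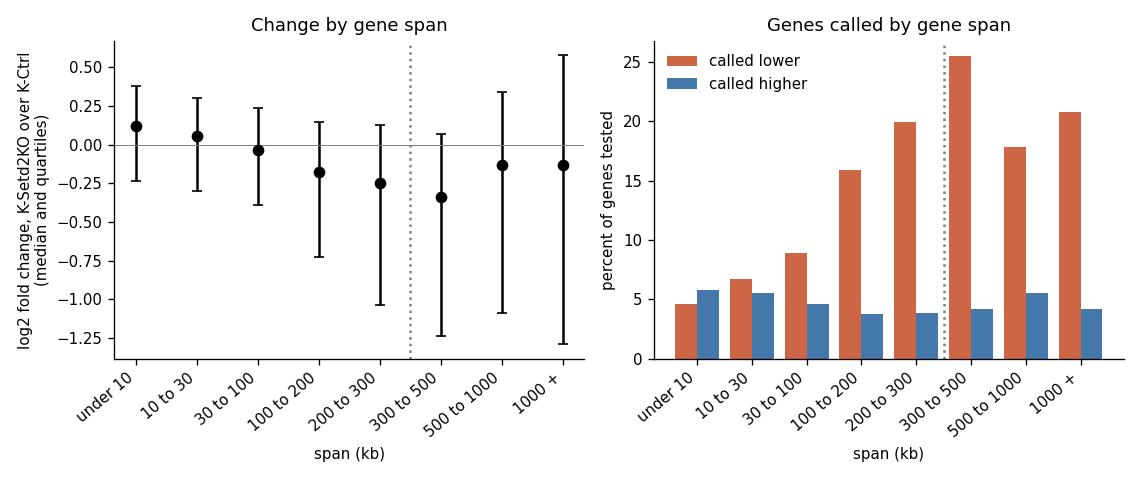
Left, median log2 fold change with quartiles (*K-Setd2KO* over *K-Ctrl*) in classes of gene span in kb. Right, percent of genes tested that were called lower or higher in the same classes. The dotted line marks 300 kb. The classes to its right include 7 genes that entered through *K-Ctrl* alone, all called lower. Lower calls rise from 4.59% under 10 kb to 25.5% at 300 to 500 kb, and higher calls stay between 3.76% and 5.77%.

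Span was also followed within terciles of summed exon length, in which exon length was not equal. In the tercile with the longest exons its median still rose with span, from 6620 bases under 30 kb to 9108 bases at 100 to 300 kb and 10604 bases in long genes. There, 6.43% of genes under 30 kb, 17.9% of genes of 100 to 300 kb and 25.4% of the 279 long genes were called lower. In the middle tercile 10.8% of 37 long genes were called lower, below the 16% of genes of 100 to 300 kb. The tercile with the shortest exons held 14 long genes, of which 1 (7.14%) was called lower, and that is too few to read. Long genes were called lower more often than shorter genes in each tercile of abundance. The shares were 27.3% against 9.41% at low CPM, 23.5% against 9.35% in the middle and 15.7% against 5.34% at high CPM. All 7 tested long genes that entered through *K-Ctrl* alone were in the tercile of low CPM, and without genes that entered through 1 group its shares were 23.5% against 8.84%. They were also in the tercile with the longest exons, where 23.5% of the other 272 long genes were called lower. At high CPM the median log2 fold change of the 89 long genes was 0.02, with quartiles of -0.44 and 0.39.

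**Figure D3:**
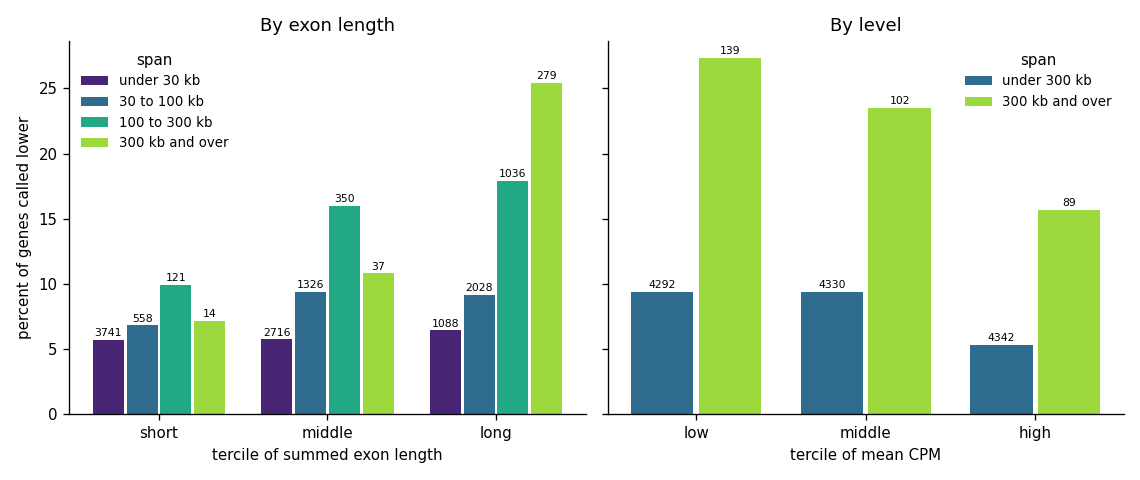
Percent of genes called lower (vertical axis) by span, within terciles of summed exon length (left) and of mean CPM (right). The number of genes stands over each bar. In the tercile with the longest exons, where exon length rises with span too, the share goes from 6.43% to 25.4%, and in every tercile of CPM the long genes exceed the shorter ones. Without genes that entered through 1 group, the long gene bars at the longest exons and at low CPM are both 23.5%.

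The long gene with the smallest p was *Diaph2* (chrX:129749742-130465834, 716.1 kb), whose promoter is the first one shown. It was counted at 80.4, 74.8, 72.5 and 60.6 CPM in *K-Ctrl* and at 33.6, 36.6, 36.1 and 33.1 CPM in *K-Setd2KO*. The groups lay far apart with little spread, and the log2 fold change was -1.05 (SE 0.12, adjusted p = 0.00529, and 0.0117 with a term for sex). *Dock2* (chr11:34226815-34783892), known for Rac activation in leukocytes, had 48.0, 74.7, 68.0 and 36.9 CPM in *K-Ctrl* and 17.4, 14.5, 11.1 and 13.2 CPM in *K-Setd2KO*. The lowest control tumor had over 2 times the CPM of the highest knockout tumor, for a log2 fold change of -2.01 (SE 0.25, adjusted p = 0.0056). *Dnah9* (chr11:65831282-66168551), a dynein heavy chain of motile cilia, had 6.39, 2.94, 3.36 and 2.40 CPM in *K-Ctrl* and 0.21, 0.15, 0.18 and 0.51 CPM in *K-Setd2KO*. It was low in every knockout tumor, down to 2 counts (log2 fold change -3.96, SE 0.53). Only *K-Ctrl* tumors brought it over the count limit. Its relative *Dnah11* fell as well, from a mean of 3.63 to 0.34 CPM (adjusted p = 0.019, and 0.0703 with a term for sex). The summed ciliated cell markers were 8.90 to 29.5 CPM in *K-Ctrl* and 4.88 to 15.7 CPM in *K-Setd2KO*. All 6 tested were below 0, with a median of -0.72 and 0 of 6 members called by edgeR or by DESeq2 and 1 lower at an unadjusted p under 0.05, and their part in the result was not tested.

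Other leading genes that fell have roles at the nuclear envelope, in cell polarity and in transcription. *Syne1*, which encodes nesprin-1 and ties the nucleus to the cytoskeleton, went from 54.3 ± 23.9 to 13.9 ± 1.68 CPM (SD, n = 4; adjusted p = 0.00824). *Prickle2*, a planar cell polarity gene, went from 45.5 ± 22.1 to 10.7 ± 1.43 CPM (SD, n = 4; adjusted p = 0.00881). *Creb5*, a transcription factor of the CREB family, had 17.6, 19.1, 18.3 and 12.4 CPM in *K-Ctrl* and 4.77, 2.98, 2.76 and 5.64 CPM in *K-Setd2KO* (log2 fold change -2.07, SE 0.28, adjusted p = 0.00635). *Creb5* and *Prickle2* lie on chromosome 6, where the 839 genes tested had a median log2 fold change of 0.27, so these genes moved against the median of their chromosome. The 20 tested long genes of chromosome 6 had a median of 0.26, with 4 lower and 1 higher, and the 310 elsewhere had a median of -0.26. Their mean centred log2 CPM, in contrast to the median, was 0.30 lower in *K-Setd2KO*, at 0.14 to 0.17 in *K-Ctrl* and -0.33 to -0.02 in *K-Setd2KO*.

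Some membrane proteins best known from neurons had few or no counts in *K-Setd2KO* tumors. *Tmem132d* and *Gria1* met the count limit through the 4 *K-Ctrl* tumors alone, which favored a fall, so their values are descriptions. *Tmem132d*, a membrane protein gene, had 2.46, 1.43, 1.75 and 1.16 CPM in *K-Ctrl* and 0 counts in all 4 *K-Setd2KO* tumors. Against a limit of 3 counts over the 4 knockout tumors it was at least 29.0-fold lower. *Gria1*, an AMPA-type glutamate receptor subunit, had 18.3, 2.85, 5.94 and 1.51 CPM in *K-Ctrl*, which itself varied widely, and a total of 2 counts in *K-Setd2KO*. The ratio of pooled values was 192.8 (95% exact interval 53.1 to 1597, covering counting error only). Without *K-Ctrl* replicate 1 the ratio was 98.96 (27 to 823). *Cacna1d*, an L-type calcium channel subunit, went from 9.94 ± 3.97 to 2.59 ± 0.32 CPM (SD, n = 4; adjusted p = 0.00834).

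**Figure D4:**
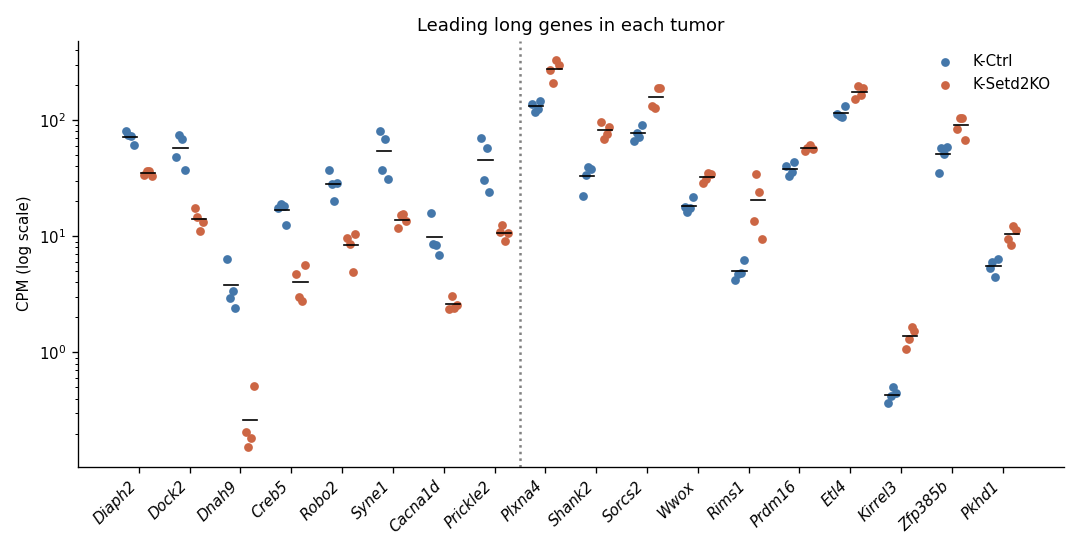
CPM on a log scale in each tumor for the leading long genes that fell (left of the dotted line) and rose (right of it), ordered by p. Points are tumors and lines are group means. *Tmem132d* and *Gria1* are left out because some of their values are 0. *Dnah9* met the count limit through *K-Ctrl* alone, which favored a fall, so its separation is a description. For every gene drawn the 2 groups do not overlap, and *Diaph2* and *Prdm16* have the tightest *K-Setd2KO* values.

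Adhesion and guidance genes are ligands, receptors and other surface proteins. Of 26 tested, 10 fell (38.5%, where 23.0% of all long genes did), 2 rose and 14 did not pass, with a median of -1.08 and 24 values below 0. The 10 include *Unc5c* and *Fat3*, which met the count limit through *K-Ctrl* alone, and without them 8 of 24 (33.3%) fell. The SLIT ligands and their ROBO receptors, which repel axons and also act on vessels and leukocytes, were lower together. *Slit2* had 52.0, 32.7, 23.7 and 39.7 CPM in *K-Ctrl* and 9.94, 10.8, 6.63 and 15.2 CPM in *K-Setd2KO*, with no overlap (log2 fold change -1.81, SE 0.30, adjusted p = 0.00932). *Robo2* (chr16:73892306-74411825) had 37.1, 28, 20 and 28.6 CPM in *K-Ctrl* and 9.63, 8.62, 4.88 and 10.4 CPM in *K-Setd2KO* (log2 fold change -1.76, SE 0.27, adjusted p = 0.00811). *Slit3* and *Robo1* fell as well, with log2 fold changes of -1.73 and -1.66, and the call of *Robo1* was lost with a term for sex (adjusted p = 0.0909). *Unc5c*, a netrin receptor that met the count limit through *K-Ctrl* alone, had a log2 fold change of -3.67, and its groups overlapped through *K-Setd2KO* replicate 4 at 1.20 CPM. *Cadm1*, an immunoglobulin-type adhesion molecule, fell from 355 ± 89.0 to 151 ± 36.8 CPM (SD, n = 4; adjusted p = 0.013).

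Of 14 genes listed as receptor kinases, phosphatases and growth factors, 3 fell (21.4%, near the share of all long genes), 1 rose and 10 did not pass, with a median of 0.16. The 1 that rose was *Sorcs2*, a sorting receptor that is neither a kinase nor a phosphatase nor a growth factor. *Nrg1*, the neuregulin ligand of ERBB receptors, had 9.95, 7.88, 6.40 and 5.88 CPM in *K-Ctrl* and 0.46, 2.14, 0.92 and 1.03 CPM in *K-Setd2KO* (log2 fold change -2.73, SE 0.46, adjusted p = 0.00967). *Ptprd*, a receptor-type tyrosine phosphatase with the second-largest span at 2270.7 kb, had 46.5, 18.5, 21.6 and 11.9 CPM in *K-Ctrl* and 4.41, 3.74, 1.47 and 7.0 CPM in *K-Setd2KO* (log2 fold change -2.60, SE 0.53, adjusted p = 0.0172). *Fgfr2* did not pass, at 244.5 ± 34.5 and 282 ± 47.7 CPM (SD, n = 4). *Ptprm*, *Ptprg* and *Ptprk*, relatives of *Ptprd*, had log2 fold changes of 0.10, 0.11 and 0.28 and did not pass either.

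Of 24 second-messenger genes tested, 6 fell (25%, near the 23.0% of all long genes) and 1 rose, with a median of -0.74. *Rgs6*, 1 of the 6, met the count limit through *K-Ctrl* alone, and without it 21.7% fell. *Plce1*, a phospholipase C, had 51.8, 20.6, 34.4 and 11.9 CPM in *K-Ctrl* and 4.77, 2.67, 5.71 and 3.93 CPM in *K-Setd2KO* (log2 fold change -2.80, SE 0.46, adjusted p = 0.00922). The phosphodiesterase gene *Pde7b* was the 1 that rose, from 97.3 ± 19.8 to 168.5 ± 40.5 CPM (SD, n = 4; adjusted p = 0.0402). Its call was made in 1 of the 8 fits that left out a tumor, and its adjusted p was 0.12 with a term for sex. Of 20 exchange factors and activators of small GTPases and their partners, 6 fell (30%, where 23.0% of all long genes did) and 0 rose by edgeR, with a median of -0.41. At an unadjusted p under 0.05, which 13.6% of all genes passed upward and 16.3% downward, 2 of them were higher, and DESeq2 called 0 higher. Besides *Dock2* these included *Prex2*, a Rac exchange factor, which went from 136 ± 99.2 to 25.9 ± 6.38 CPM, and *Vav3*, another exchange factor, which went from 12.5 ± 5.78 to 2.59 ± 0.91 CPM (SD, n = 4). The adjusted p of *Prex2* was 0.0586 with a term for sex. It had 279 CPM in *K-Ctrl* replicate 1 and 58.6 to 122 CPM in the other controls, all above the knockout tumors.

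Ion channels, pumps and transporters had a median of -1.03 over 24 genes tested, with 6 lower (25%, near the 23.0% of all long genes) and 0 higher by edgeR. *Tmem132d* and *Gria1* are 2 of the 6, and without them 4 of 22 (18.2%) were lower, below the 21.4% of all long genes taken in the same way, with a median of -0.90. At an unadjusted p under 0.05, 1 was higher, and DESeq2 called 0 higher. *Ryr3*, a ryanodine receptor gene, had a value of 1.82 and did not pass. The median was the same with *Tmem132d* set at its bound. The calcium channel subunit genes *Cacna1d*, *Cacnb2* and *Cacna2d1* had log2 fold changes of -1.94, -1.84 and -1.60. The call of *Cacnb2* was made in 2 of the 8 fits that left out a tumor and was lost with a term for sex (adjusted p = 0.0745). *Cacna1c* and *Cacna1e*, of the same kind, had -0.50 and -1.77 and did not pass. Genes of the extracellular matrix, proteoglycans and glycosylation had a median of -0.91 over 15 tested, with 5 that fell (33.3%, where 23.0% of all long genes and 7.74% of all genes did) and 1 that rose. *Gpc6*, a cell-surface proteoglycan gene, was the 1 that rose, very unevenly. It had 1.90, 3.61, 1.43 and 4.36 CPM in *K-Ctrl* and 44.3, 2.67, 13.3 and 81.5 CPM in *K-Setd2KO*. *K-Setd2KO* replicate 2 lay within the control range, and the call (adjusted p = 0.0349) was made in 2 of the 8 fits that left out a tumor.

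Of 37 cytoskeleton and scaffold genes tested 9 fell (24.3%, near the share of all long genes) and 2 rose, with a median of -0.30. *Macf1*, which links microtubules to actin, is the long gene with the second-highest mean CPM and had 800, 424.5, 465 and 489 CPM in *K-Ctrl* and 335, 249.9, 193 and 239 CPM in *K-Setd2KO* (log2 fold change -1.10, SE 0.24, adjusted p = 0.0214, and 0.0691 with a term for sex). *K-Setd2KO* replicate 3 also decided its call, which was lost without that tumor at a log2 fold change of -0.98. *Dst*, its close relative, fell by 1.33 on the log2 scale, and its adjusted p was 0.0778 with a term for sex. *Dmd*, the dystrophin gene at 2257.3 kb, had 32.6, 23.3, 33.7 and 16.5 CPM in *K-Ctrl* and 5.69, 11.5, 14.5 and 11.4 CPM in *K-Setd2KO* (log2 fold change -1.31, SE 0.32, adjusted p = 0.0305, and 0.0855 with a term for sex). Its call was made in 4 of the 8 fits that left out a tumor and was lost after trends with exon length and GC content were removed (adjusted p = 0.0565). *Utrn*, which encodes the dystrophin relative utrophin, was at 300 ± 101 and 189 ± 11.5 CPM and did not pass (adjusted p = 0.0637). *Ank3*, which encodes the membrane scaffold ankyrin-G, went the other way, with 204, 207, 199 and 285 CPM in *K-Ctrl* and 325, 339.5, 330.1 and 320.5 CPM in *K-Setd2KO* (log2 fold change 0.56, SE 0.14, adjusted p = 0.0326). Its call was made in 1 of the 8 fits that left out a tumor.

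Transcription and chromatin regulators had 12 of 43 tested lower (27.9%, near the 23.0% of all long genes) and 1 higher, with a median of -0.20. Without *Aff2*, which met the count limit through *K-Ctrl* alone, 26.2% were lower. The lower ones included *Hdac9*, a class II histone deacetylase, at -1.81, *Runx2*, a transcription factor of bone and mesenchyme, at -1.37, *Ebf1*, a factor of B cells and stroma, at -1.37 and *Tcf4*, a basic helix-loop-helix factor, at -0.91 on the log2 scale. *Nfib* and *Foxp1*, factors of lung development, had log2 fold changes of -0.16 and 0.58 and did not pass. Of 6 genes for RNA-binding proteins, *Celf2*, a splicing regulator, was the 1 that fell, from 130, 130, 121 and 97.8 CPM to 62.4, 80.1, 64.4 and 80.3 CPM (log2 fold change -0.74, SE 0.14, adjusted p = 0.0137). After trends with exon length and GC content were removed its adjusted p was 0.0562, and that of *Tcf4* was 0.0753. Vesicle traffic, ubiquitin and autophagy genes had 2 of 21 tested lower (9.52%, near the 7.74% of all genes) and 1 higher, with a median of 0.03. *March1*, a membrane ubiquitin ligase that removes MHC class II from the surface of antigen-presenting cells, had 26.5, 48.2, 49.5 and 19.0 CPM in *K-Ctrl* and 11.7, 7.25, 11 and 9.56 CPM in *K-Setd2KO* (log2 fold change -1.86, SE 0.32, adjusted p = 0.011).

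Genes of common fragile sites are long and replicate late. Of 18 tested, 1 fell (*Dmd*, with the limits given above) and 1 rose (*Wwox*), the others did not pass, and the median was 0.25. The 5.56% called lower stand beside 7.74% of all genes and 23.0% of all long genes. *Macrod2* at 1997.7 kb and *Naaladl2* at 1346.2 kb had log2 fold changes of -0.29 and 0.80. *Magi2*, a scaffold gene of 1477.8 kb, had 5.59, 4.36, 6.45 and 6.5 CPM in *K-Ctrl* and 6.25, 15.3, 18.1 and 8.71 CPM in *K-Setd2KO*, with an adjusted p of 0.0699. The 24 genes of 1000 kb and over had levels 0.33 lower in *K-Setd2KO* as a group mean of centred log2 CPM, against 0.56 lower for all long genes.

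**Figure D5:**
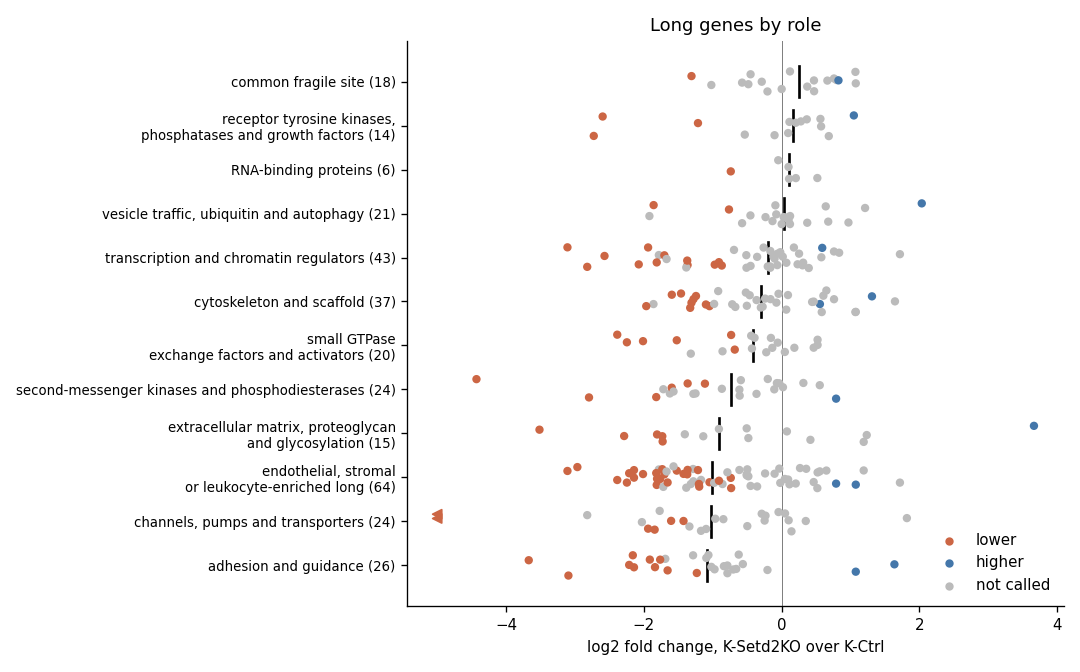
Log2 fold change (*K-Setd2KO* over *K-Ctrl*, horizontal axis) of each long gene tested, by role list, with the number tested in brackets. Orange genes were called lower, blue higher and grey not called, a black bar is the median, and the triangles at the left edge are *Tmem132d* and *Gria1*, which lie beyond the axis. A gene can stand in several lists. Adhesion genes have the lowest median (-1.08) and fragile site genes the highest (0.25).

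The 15 long genes that rose were fewer but more abundant, with a median of 5.45 CPM per kb of exon against 1.24 CPM per kb for those that fell. *Plxna4* (chr6:32144268-32588192) had 137, 117, 124 and 146 CPM in *K-Ctrl* and 271, 207, 328 and 298 CPM in *K-Setd2KO*, with no overlap (log2 fold change 1.08, SE 0.16, adjusted p = 0.0073). *Shank2* (chr7:144001928-144424494), a scaffold of synapses that epithelia also express, had 22.4, 33.4, 39.1 and 37.9 CPM in *K-Ctrl* and 96.7, 69.2, 76.2 and 87.4 CPM in *K-Setd2KO* (log2 fold change 1.31, SE 0.19, adjusted p = 0.00738). *Sorcs2*, a VPS10-domain sorting receptor, had 66.5, 76.8, 72.1 and 91.2 CPM in *K-Ctrl* and 132.5, 127, 187 and 188 CPM in *K-Setd2KO* (log2 fold change 1.05, SE 0.17, adjusted p = 0.00882). These genes more than doubled in level, and each was called in all 8 fits without a tumor. *Wwox* had 17.7, 16.1, 17.3 and 21.6 CPM in *K-Ctrl* and 28.5, 31.1, 35.2 and 34.0 CPM in *K-Setd2KO* (log2 fold change 0.83, SE 0.14, adjusted p = 0.0109). *Rims1*, an organizer of synaptic vesicle release, had 4.24, 4.70, 4.79 and 6.23 CPM in *K-Ctrl* and 13.6, 34.2, 24.2 and 9.39 CPM in *K-Setd2KO* (log2 fold change 2.04, SE 0.38, adjusted p = 0.0134). Both were also called in all 8 fits.

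Other rises were smaller or less firm. *Prdm16*, a zinc-finger transcription regulator, went from 38.1 ± 4.76 to 57.4 ± 3.03 CPM, and *Etl4* went from 115 ± 12.3 to 175 ± 19.9 CPM (SD, n = 4), with log2 fold changes of 0.59 and 0.61. *Zfp385b*, a zinc-finger gene, and *Pkhd1*, which encodes fibrocystin of primary cilia, had log2 fold changes of 0.83 and 0.90. Their calls were made in 4 and 3 of the 8 fits that left out a tumor. *Gse1* and *Tanc2* had log2 fold changes of 0.65 and 0.45, with calls made in 3 and 1 of the 8 fits that left out a tumor. The calls of *Etl4*, *Zfp385b*, *Pkhd1*, *Gse1*, *Tanc2* and *Ank3* were lost with a term for sex. *Kirrel3*, an immunoglobulin-type adhesion gene, rose from 0.43 ± 0.06 to 1.39 ± 0.26 CPM (SD, n = 4), on 5 to 21 counts per tumor. Its call was made in 4 of the 8 fits that left out a tumor and was lost without the low-count filter. The most abundant long gene, *Rabgap1l*, which encodes a GTPase-activating protein for RAB proteins, had 235.5, 418.5, 300.3 and 265 CPM in *K-Ctrl* and 458, 191, 500.7 and 1242 CPM in *K-Setd2KO*. Its groups overlapped widely and it did not pass (adjusted p = 0.215).

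The filter of the fit dropped 7 long genes with few counts, namely *Cadm2*, *Nav3*, *Dgkb*, *Tenm4*, *B3galt1*, *Adgrv1* and *Pde1c*. In a fit that kept every gene of the rule, 6 of them had adjusted p from 0.174 to 0.846. *Pde1c*, a calcium-activated phosphodiesterase gene, had 0.68, 10.4, 5.57 and 5.16 CPM in *K-Ctrl* and 0.10, 0.15, 0 and 0 CPM in *K-Setd2KO*. It met the count limit through *K-Ctrl* alone, so its lower value is a description.

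Genes known from endothelium, stroma or leukocytes were frequent among the long genes that fell. A list of such genes, written by hand from general knowledge with earlier results of these data known, held 64 of the 330 tested. In it 26 (40.6%) fell and 2 rose, with a median of -1.01. The other 266 long genes had 50 (18.8%) lower and 13 higher, with a median of -0.19. The 50 include all 7 tested genes that entered through *K-Ctrl* alone, and this share was not repeated without them. In the same tumors the markers of several cell types were lower in *K-Setd2KO*. Summed over 10 pan-leukocyte genes they were 1151 to 2004 CPM in *K-Ctrl* and 649.7 to 878 CPM in *K-Setd2KO*, with 10 of 10 below 0 and 7 called lower. Macrophage markers ranged over 2202 to 6507 and 436 to 2652 CPM (12 of 12 below 0, 7 called), and endothelial markers over 595 to 2211 and 235 to 608 CPM (11 of 11 below 0, 2 called). Fibroblast markers ranged over 567 to 1178 and 146 to 612 CPM (9 of 10 below 0, 3 called), and T cell markers over 58.4 to 151 and 9.12 to 47.7 CPM (10 of 10 below 0, 1 called). Mesothelial markers went from 22.8 to 103 CPM down to 5.11 to 20.3 CPM, with 4 of 5 called lower, and red-cell markers from 150 to 804 down to 76.2 to 202 CPM, with 0 of 5 called by edgeR, 4 called by DESeq2 and 5 lower at an unadjusted p under 0.05. No defining marker of these types was at 0 in every tumor. B cell markers ranged over 33.6 to 84.0 and 18.1 to 28.5 CPM (5 of 6 below 0, 1 called), and alveolar type 1 markers over 3273 to 5497 and 2108 to 3906 CPM (7 of 8 below 0, 1 called). Below 0 were also 3 of 6 club cell, 3 of 5 cardiac muscle and 0 of 3 nerve and glia markers. Neutrophil markers were 17.1 to 24.1 CPM in *K-Ctrl* and 14.4 to 58.1 CPM in *K-Setd2KO*, with 2 of 6 below 0 and a median of 0.53. Smooth muscle and pericyte markers ranged over 187 to 309 and 167 to 264 CPM, with 8 of 10 below 0 and 1 called higher. Lung epithelial markers were 1968 to 3005 CPM in *K-Ctrl* and 2753 to 3331 CPM in *K-Setd2KO*, with 4 of 8 called higher and 2 of 8 below 0. In bulk tumors fewer cells of a type and less RNA per cell cannot be told apart, and the part of these cell types in the long gene result was not tested. Without the listed genes the long gene level differed by -0.48 with the groups apart, and long minus shorter differed by -0.14. The list leaves out genes such as *March1*, known from antigen-presenting cells, and these values include genes that entered through *K-Ctrl* alone.

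Genes that act on elongation, on methylation of lysine 36 or on the twist of DNA in transcribed genes were examined as a list. Of 40 tested, 1 rose and 0 fell by edgeR, with a median of 0.09, against the 7.74% called lower and 4.97% called higher among all genes. At an unadjusted p under 0.05, which 16.3% of all genes passed downward and 13.6% upward, 4 were lower and 4 higher. DESeq2 called 2 lower and 1 higher. The gene that rose was *Leo1*, a subunit of the PAF1 elongation complex, from 28.6 ± 1.31 to 41.5 ± 6.45 CPM (SD, n = 4; adjusted p = 0.0369). The lowest value was that of *Top2a*, a topoisomerase of dividing cells, at 68.8 ± 9.26 and 31.9 ± 21.2 CPM (SD, n = 4; adjusted p = 0.13).

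The length limit separated genes with no visible step. Just inside it were *Pam* at 300532 bases, with 160 ± 32.4 and 162 ± 26.7 CPM, and *Ranbp17* at 301951 bases, with 0.76 ± 0.17 and 1.12 ± 0.93 CPM (mean ± SD, n = 4, *K-Ctrl* and *K-Setd2KO*). Just outside it were *Jazf1* at 299834 bases, with 3.46 ± 0.91 and 3.55 ± 1.31 CPM, and *Akap13* at 299075 bases, with 379 ± 36.6 and 259 ± 18 CPM. All long genes together held 1.80%, 1.44%, 1.49% and 1.49% of the counts in *K-Ctrl* and 1.33%, 1.37%, 1.40% and 1.52% in *K-Setd2KO*. These shares overlapped through *K-Setd2KO* replicate 4.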

How the data were processed

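Strand-aware poly(A) libraries of 8 lung tumors were sequenced, 4 of each group. The authors deposited a table of raw counts per gene with no normalization, with GRCm38 exon coordinates and summed exon lengths. The submitters' processing notes name STAR 2.5.2b, featureCounts 1.5.0-p1 and GRCm38.p4, and the strand setting is not given in the sources used here. Gene types and symbols came from GENCODE M21, in which 99.26% of the identifiers were found, and promoters and spans for the check from RefSeq.

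The members and lists were chosen with earlier results of these data known. Genotypes were compared in R 4.3.3 with edgeR 4.0.16 (filterByExpr, TMM factors, robust quasi-likelihood test, genotype alone) over 14929 genes with Benjamini-Hochberg adjustment, and genes with adjusted p under 0.05 were called. Standard errors are the log2 fold change over the square root of F. CPM used TMM-scaled library sizes. The per-tumor level used log2 CPM with a prior count of 2. Shorter genes were weighted in 5 by 5 classes of mean CPM and exon length cut at quintiles of the long genes. In each direction the 10 long genes of smallest p that were called and did not overlap were named, with the 3 of largest span, the 3 of highest CPM, the leader of each role list and the neighbors of the limit. Genes named outside this rule were chosen after their values were seen. A limit of 3 counts was 0.141 CPM in the deepest and 0.517 CPM in the shallowest library. DESeq2 1.42.0, limma voom 3.58.1, other scalings, filters, span limits, a sex term, a replicate block, and fits without each tumor were alternatives. Figures were drawn with matplotlib 3.10.9. Some items are not reported here.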

Additional observations from a re-analysis of the deposited data

Results flagged for a closer look

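Among 84 groups of 4 values examined, 3 held a tumor set apart from the other 3 by more than Dixon's 95% limit for 4 values. Chance gives about 1 in 20 groups, or 4.2 of 84, so 3 is no more than chance gives. The share of all counts in long genes was 1.80% in *K-Ctrl* replicate 1 and 1.44% to 1.49% in the other controls. *Dnah9* was at 0.51 CPM in *K-Setd2KO* replicate 4, the shallowest library, and at 0.15 to 0.21 CPM in the other knockout tumors. *Ank3* was at 285 CPM in *K-Ctrl* replicate 4 and at 199 to 207 CPM in the other controls.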

How the results depend on the processing

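Over 289 recomputed values of 17 leading genes (*Dnah9*, *Tmem132d* and *Gria1*, which met the count limit through *K-Ctrl* alone, are left out), 0 changed direction and 25 lost the call, and 12 of the genes were called under every alternative. Without each tumor in turn, 763 to 2058 genes of all tested were called, 12% to 22.3% of long genes were lower and 1.5% to 4.82% higher, the weighted shorter genes were lower in 6.53% to 13.1%, and the difference of medians was -0.26 to -0.11. DESeq2 called 3193 genes of all tested and 7.72% of long genes higher, with 30.3% of long genes and 19.2% of weighted shorter genes lower. With a term for sex, 1237 genes were called in all, with 11.2% of long genes and 9.03% of weighted shorter genes lower and 2.73% of long genes higher. With exon length and GC trends removed, 7.27% of long genes were higher, and 19.4% of them and 11.5% of weighted shorter genes were lower. *Setd2* then had a log2 fold change of 0.0800. With a limit of 500 kb the difference of medians was 0.0171 and long minus shorter differed by -0.0675. The causes of these moves were not tested. Without each tumor in turn the log2 fold change of *Pam* ranged from -0.0740 to 0.132 and that of *Ranbp17* from -0.101 to 0.899, and neither was called in any fit that held it (*Ranbp17* was dropped by the filter without *K-Setd2KO* replicate 2). The restriction to genes long in RefSeq and the removal of genes that met the count limit through 1 group were chosen after seeing the data and changed no direction. Same-numbered tumors correlated at -0.08, 0.26, 0.30 and -0.16 in their deviations from the group means. Tumors of unlike number correlated at -0.49 to 0.30. So few values do not settle whether the numbers pair tumors. With the replicate number as a block, 1341 genes were called in all, with 18.8% of long genes lower and 2.73% higher. Depth limits genes near 1 CPM, where a few counts decide the value.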
